A study of Mus musculus with 16 samples.

Results

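A set of 30 genes of sterol and fatty acid synthesis was followed through retinoic acid treatment of mouse embryonic stem cells with and without knockdown of Sirt1. The set was given by name: 18 enzymes of the cholesterol pathway (the sterol arm), 1 sterol carrier, 5 regulators of the pathway, and 6 enzymes of fatty acid synthesis, elongation and desaturation (the fatty acid arm). All 30 were on the array and all 30 passed the filter on dim probes, out of 18276 genes tested. They had 60 probes, 11 of the genes had 1 probe, and each gene was read from its probe with the highest mean signal. The chosen probes of all 30 were well above background on all 16 arrays and none was saturated, so each value of these 30 genes is a measured level rather than a bound.

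The cells were E14 mESCs, a line of mouse embryonic stem cells, and carried an shRNA that was stably expressed from a lentivirus vector. All groups grew in the same serum medium with leukocyte inhibitory factor, as the labels spell it. The sh-Control line carried a control shRNA and the sh-SIRT1 line an shRNA against Sirt1, whose product removes acetyl groups from proteins at the cost of NAD. Both lines received vehicle ethanol or 20 nM RA (retinoic acid) for 2 days, which gave 3 sh-Control vehicle arrays, 3 sh-SIRT1 vehicle arrays, 4 sh-Control RA arrays and 6 sh-SIRT1 RA arrays. The question of the series, from its title, is whether loss of SIRT1 enhances the differentiation that RA induces. The promoter that drives the hairpin and whether a line is 1 clone are not given in the sources used here, so the hairpin and the history of its line cannot be told apart. The design text speaks of pairs of the 2 lines and of duplicates, without saying which arrays are duplicates or come from separate cultures. All p-values therefore rest on array-to-array spread within groups, part of which may be technical.

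Cholesterol is built from acetyl units through mevalonate and squalene, and the last steps turn lanosterol into cholesterol. The transcription factors encoded by Srebf1 and Srebf2 raise the genes of both arms when sterols are low; SCAP escorts them out of the endoplasmic reticulum and the INSIG proteins hold them back. Retinoid receptors share their partner RXR with the oxysterol receptors, which act on Srebf1 and on the desaturase gene Scd1.

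Levels are given as log2 signal relative to the 75th percentile of the array, and differences are in log2 units with their standard error (SE). They compare a gene with itself, since signals of different probes cannot be set against each other. A gene passed where its Benjamini-Hochberg adjusted p from limma, over all genes tested, was under 0.05. RNA came from whole cultures, in which fewer cells of a type and less RNA per cell cannot be told apart.

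Some facts of the whole series bear on the values below. Sirt1 lay between 3.28 and 3.85 on the sh-Control arrays and between 0.92 and 1.89 on the sh-SIRT1 arrays, with no overlap. Ddx3y, a Y-linked gene, was not well above background on sh-Control RA arrays 2, 3 and 4, at -6.91 to -8.12, against 0.23 on sh-Control RA array 1 and 0.33 to 1.60 on the arrays of the other groups. On sh-Control RA arrays 2, 3 and 4, effects of RA or the hairpin cannot be told apart from differences that go with missing Ddx3y. Results that use the sh-Control RA group are therefore also given with array 1 as its sole member, which is then assumed to vary like the other groups. The arrays that differed least within a group were sh-Control RA arrays 3 and 4, with an SD of their log2 differences of 0.214, against 0.269 to 0.736 for the other pairs. Between 60.3% and 68.6% of spots were well above background on each array.

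Under RA more of these genes rose than fell in each line, except with median scaling in sh-SIRT1, where 4 rose and 5 fell. In the sh-Control line 16 of the 30 rose and 1, Idi1, fell, while 46.8% of all genes tested passed, 19.7% higher and 27.2% lower. In the sh-SIRT1 line 17 rose and 2, Idi1 and Acly, fell, while 58.2% of all genes passed, 23% higher and 35.3% lower. The 2 comparisons share no arrays, but they share the estimate of each gene's spread. Of the 30, 13 rose in both, which is 81.2% of the sh-Control count and 76.5% of the sh-SIRT1 count. The matching share over all genes was not computed, so this overlap is not read as particular to the 30. None went in opposite directions and 8 passed in neither. Counted by arrays alone, the RA arrays lay wholly above the vehicle arrays in 16 of the 30 and wholly below in 1 in sh-Control, against 19.3% and 28.4% of all genes. In sh-SIRT1 they lay wholly above in 18 and wholly below in 2, against 22.6% and 35.1% of all genes. The 30 had a median log2 difference of 0.47 in sh-Control, beside -0.14 over all genes, and of 0.37 in sh-SIRT1, beside -0.13. The balance in the sh-SIRT1 line depended on scaling. Scaling arrays to their median moved the median of all genes to -0.42. With it 4 rose (Cyp51, Elovl6, Scd1 and Scd2) and 5 fell, while 67.2% of all genes passed in either direction. With quantile normalization 20 rose and none fell, while 54.4% of all genes passed. The same settings gave 13 higher and 2 lower, and 19 higher and none lower, in sh-Control. All genes passing were 53.2% and 43.6% there. Without sh-SIRT1 vehicle array 1, 9 rose and 2 fell in the sh-SIRT1 line, beside 50.6% of all genes passing. With sh-Control RA array 1 alone, 12 rose and none fell in the sh-Control line. Without RA arrays 1 and 2 of both lines, 14 rose and 3 fell in sh-Control and 16 rose and 2 fell in sh-SIRT1, beside 53.3% and 66.8% of all genes passing. Of the calls made on all arrays, 14 of 17 and 18 of 19 then stood: Fdps (0.45), Dhcr7 (0.45) and Insig1 (0.48) no longer passed in sh-Control, nor Msmo1 (0.29) in sh-SIRT1. Sh-Control then rested on RA arrays 3 and 4, the pair that differed least within any group.

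**Figure D1:**
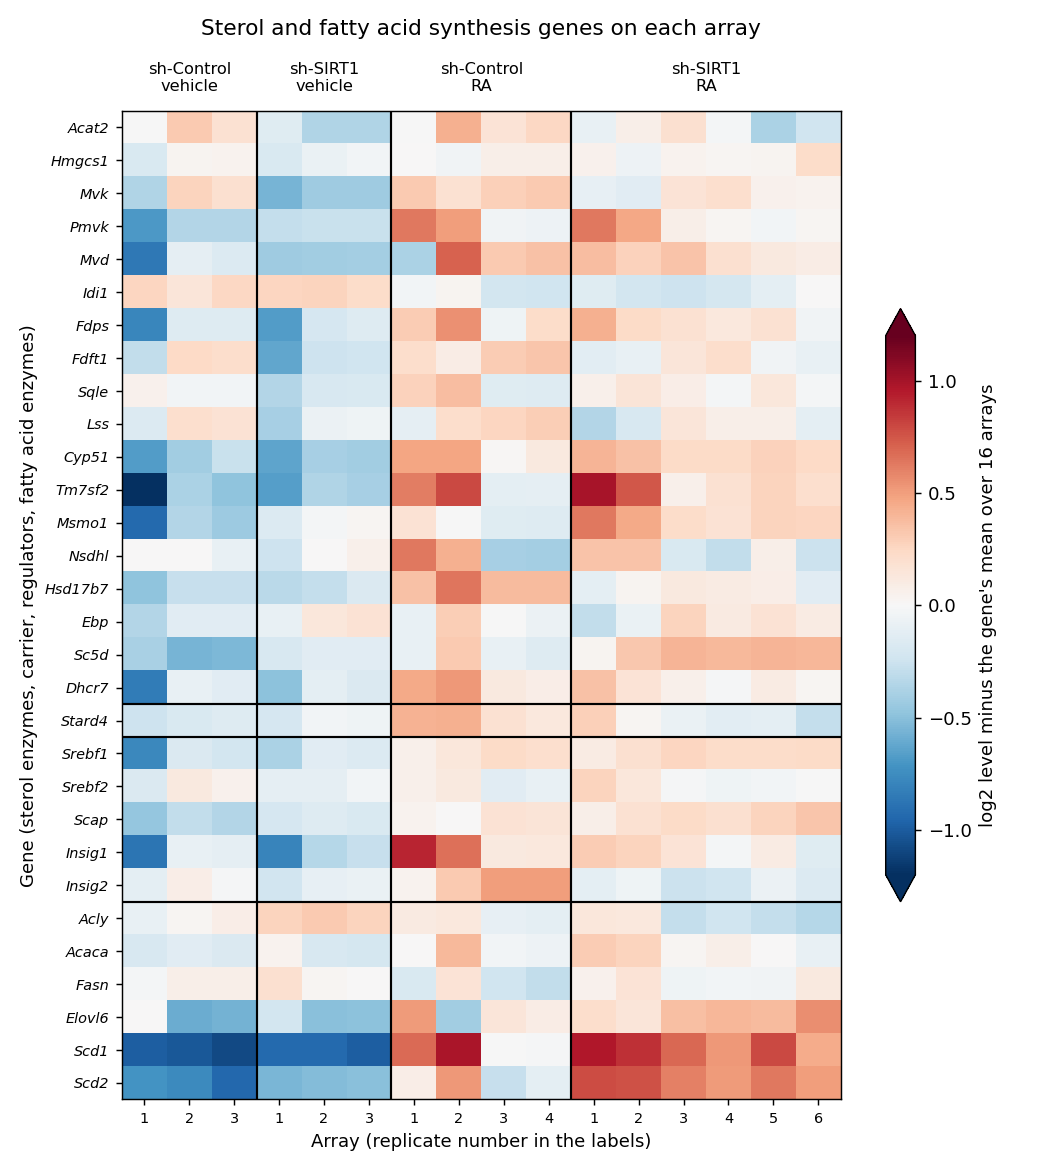
Colour shows each gene's log2 level minus its own mean over the 16 arrays, with arrays in columns by group and genes in rows by role. RA arrays were mostly above the mean in the sterol enzymes and far above it in Scd1 and Scd2, while Idi1 went the other way.

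**Figure D2:**
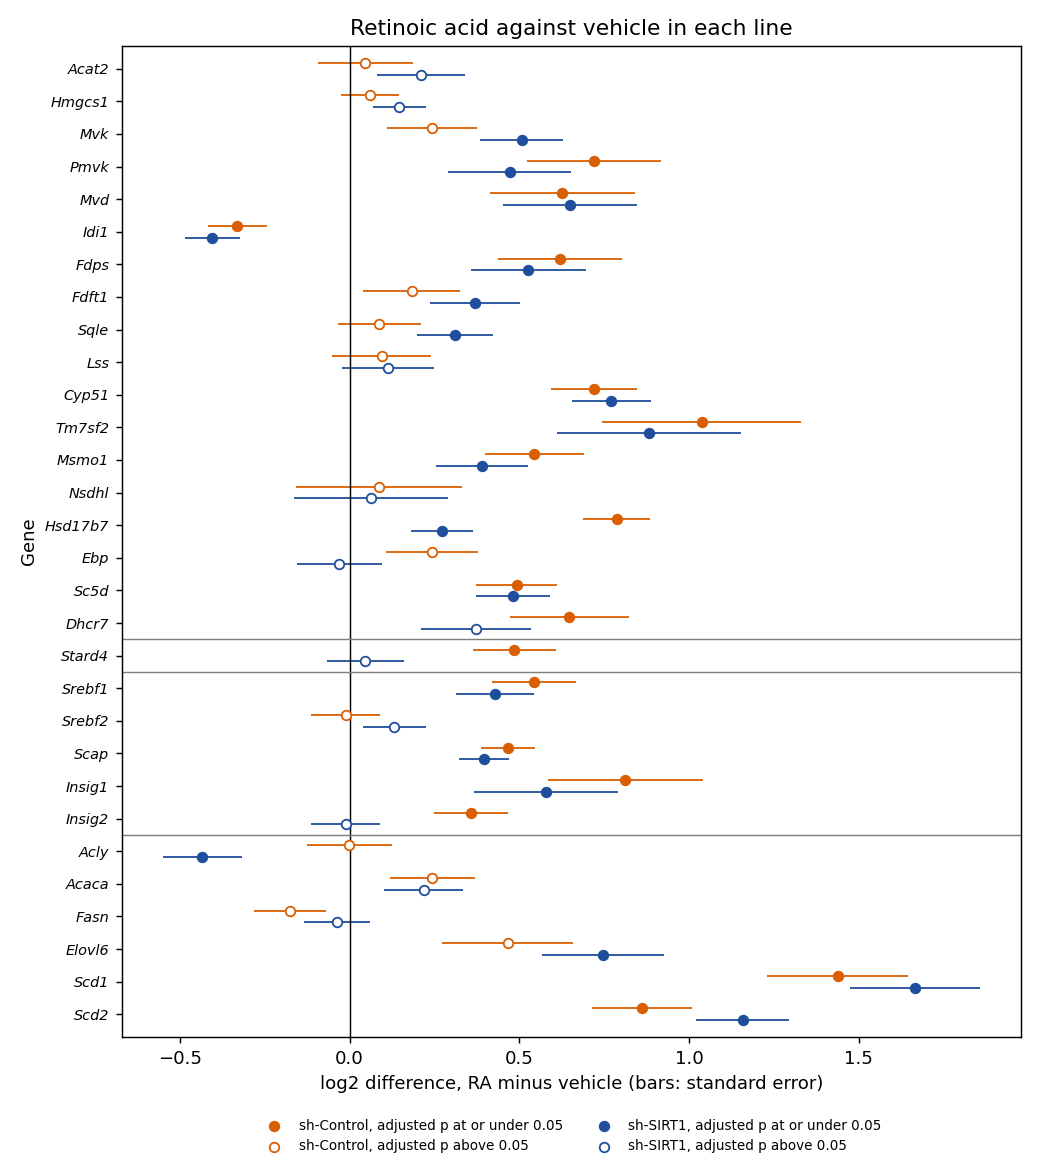
Points show the log2 difference between RA and vehicle for each gene in the sh-Control line and the sh-SIRT1 line, and bars show the SE. Filled points passed; 13 genes were filled on the right of 0 in both lines and Idi1 was filled on the left of 0 in both.

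Markers of other cell types also rose under RA, and their part in these results was not tested. The counts of markers stand beside 19.7% of all genes higher and 27.2% lower in sh-Control. In sh-SIRT1 these shares were 23% and 35.3%. Of 10 primitive endoderm markers 7 rose in sh-Control, with a median difference of 3.14, and 8 rose in sh-SIRT1, with a median of 3.29. Their summed linear level was 12.1 to 17.8 on sh-Control vehicle arrays and 9.24 to 11.4 on sh-SIRT1 vehicle arrays. It was 85.3, 27.6, 14.59 and 13.74 on sh-Control RA arrays 1 to 4, and 33.2 and 32.76 on sh-SIRT1 RA arrays 1 and 2, against 21.19 to 23.62 on the other 4. RA arrays 1 and 2 of each line were thus the highest in this sum, and sh-Control RA arrays 3 and 4 lay within the range of the vehicle arrays. RA arrays 1 and 2 were also the highest of both RA groups in Pmvk, Fdps, Cyp51, Tm7sf2, Msmo1, Nsdhl, Dhcr7, Acly, Acaca, Scd1, Scd2, Srebf2, Insig1 and Stard4. They were the lowest of both RA groups in Fdft1, Lss, Srebf1 and Scap. In sh-SIRT1 alone they were lowest in Mvk, Ebp, Sc5d and Elovl6, and in sh-Control alone in Hmgcs1 and Insig2. The matching shares over all genes were not computed, and a link of these genes to the markers was not tested. Of 8 fibroblast markers tested, 5 rose in sh-Control and 7 in sh-SIRT1, and the summed level of the 10 listed was 8.29 to 8.93 and 2.66 to 3.07 on the vehicle arrays of the lines. It was 16.43, 20.33, 8.343 and 8.057 on the sh-Control RA arrays, and 14.81 and 15.57 on sh-SIRT1 RA arrays 1 and 2, against 8.712 to 9.093 on the other 4. Of 8 yolk sac markers tested, 2 rose and 1 fell in sh-Control, and 4 rose and 1 fell in sh-SIRT1; Apoa1 and Ttr were well above background on no array. The summed level of the 10 listed was 96.3 to 140 and 67.1 to 119.5 on the vehicle arrays of the lines, and lower on most RA arrays, at 102 and 36.4 to 36.8 in sh-Control and 27 to 47.3 in sh-SIRT1. For the labelled cell type, all 9 pluripotency markers on the array were well above background on all 16 arrays. In sh-Control 1 of these 9 rose and 4 fell, and in sh-SIRT1 1 rose and 6 fell.

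The sterol arm opens with enzymes that make and phosphorylate mevalonate. Acat2, the cytosolic acetoacetyl-CoA thiolase, and Hmgcs1, the HMG-CoA synthase, did not pass under RA in either line, with differences between 0.05 and 0.21. Mvk, mevalonate kinase, was 0.18, 0.80 and 0.73 in sh-Control vehicle, -0.02, 0.11 and 0.11 in sh-SIRT1 vehicle, and 0.86, 0.72, 0.83 and 0.85 in sh-Control RA. In sh-SIRT1 RA it ran from 0.40 through a median of 0.59 to 0.73. All 6 sh-SIRT1 RA arrays were above the sh-SIRT1 vehicle arrays, and Mvk rose by 0.51 ± 0.12 (adjusted p = 0.0027). In sh-Control the RA and vehicle arrays overlapped and the difference was 0.24 ± 0.13 (adjusted p = 0.15). The second probe of Mvk gave 0.67 and 0.34 for the same differences.

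Pmvk, phosphomevalonate kinase, was 3.29, 3.63 and 3.62 in sh-Control vehicle, 3.69, 3.71 and 3.71 in sh-SIRT1 vehicle, and 4.60, 4.47, 3.93 and 3.91 in sh-Control RA. On the sh-SIRT1 RA arrays it ran from 3.94 through a median of 4.03 to 4.61. RA arrays lay above vehicle arrays in both lines, with arrays 1 and 2 the highest of each RA group. Pmvk rose by 0.72 ± 0.20 in sh-Control (adjusted p = 0.0084) and by 0.47 ± 0.18 in sh-SIRT1 (adjusted p = 0.038). The latter call was lost without any 1 of sh-SIRT1 vehicle arrays 1, 2 and 3 or sh-SIRT1 RA arrays 1 and 2, with differences of 0.38 to 0.48 and adjusted p between 0.0667 and 0.0914.

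Mvd, which decarboxylates mevalonate diphosphate to the first isoprene unit, was 1.89, 2.64 and 2.58 in sh-Control vehicle and 2.33, 2.33 and 2.35 in sh-SIRT1 vehicle. It was 2.37, 3.45, 3.06 and 3.1 in sh-Control RA, and ran from 2.84 through a median of 2.98 to 3.12 in sh-SIRT1 RA. The sh-SIRT1 groups did not overlap, and Mvd rose by 0.65 ± 0.20 (adjusted p = 0.012). In sh-Control array 1 of the RA group lay below vehicle arrays 2 and 3, so the groups overlapped. The difference there was 0.63 ± 0.21 (adjusted p = 0.027), and 0.00 with sh-Control RA array 1 alone (adjusted p = 0.996). That call was also lost without sh-Control vehicle array 1 (0.39, adjusted p = 0.157) and without sh-Control RA array 2, 3 or 4 (0.47 to 0.60, adjusted p between 0.0534 and 0.0762).

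Idi1, the isomerase that interconverts the isoprene units, was the sterol enzyme that fell. Its level was 3.79 to 3.90 in sh-Control vehicle, 3.86 to 3.91 in sh-SIRT1 vehicle, 3.40 to 3.67 in sh-Control RA and 3.39 to 3.64 in sh-SIRT1 RA, and all RA arrays lay below all vehicle arrays of their line. It fell by 0.33 ± 0.09 in sh-Control (adjusted p = 0.0066) and by 0.40 ± 0.08 in sh-SIRT1 (adjusted p = 0.00064). Its second probe also gave negative differences, -0.15 and -0.85. The files place both probes on chromosome 2 of the mouse build mm7, at chr2:53701852-53701911 for the chosen one, whereas RefSeq places the gene on chromosome 13 of GRCm38.p6, so which transcript they read was not settled here. With quantile normalization the differences were -0.12 and -0.11 and neither passed, and with sh-Control RA array 1 alone the sh-Control difference was -0.24 (adjusted p = 0.117).

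Fdps, which joins the isoprene units into farnesyl diphosphate, was 2.93, 3.57 and 3.56 in sh-Control vehicle, 3.05, 3.52 and 3.57 in sh-SIRT1 vehicle, and 4.03, 4.27, 3.66 and 3.94 in sh-Control RA. The 6 sh-SIRT1 RA arrays ran from 3.68 through a median of 3.90 to 4.14. The RA groups lay above the vehicle groups, and array 1 was the lowest of each vehicle group. Fdps rose by 0.62 ± 0.18 in sh-Control (adjusted p = 0.013) and by 0.53 ± 0.17 in sh-SIRT1 (adjusted p = 0.015). The first was 0.67 with sh-Control RA array 1 alone (adjusted p = 0.0765). Each call was lost without 1 vehicle array: without sh-Control vehicle array 1 the first was 0.41 (adjusted p = 0.0804), and without sh-SIRT1 vehicle array 1 the second was 0.36 (adjusted p = 0.112). The second probe of Fdps gave 0.01 and -0.10, and the mean of both probes did not pass, at 0.31 and 0.21.

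Between farnesyl diphosphate and lanosterol the differences were smaller. Fdft1, squalene synthase, passed in sh-SIRT1, with 0.37 ± 0.13 (adjusted p = 0.026), and not in sh-Control, with 0.18 ± 0.14 (adjusted p = 0.30). Sqle, squalene epoxidase, passed in sh-SIRT1, with 0.31 ± 0.11 (adjusted p = 0.028), and not in sh-Control, with 0.09 ± 0.12 (adjusted p = 0.57). Whether these effects differ between the lines was tested as a difference of RA effects, and neither passed, with adjusted p of 0.64 and 0.49. The sh-SIRT1 calls were lost without sh-SIRT1 vehicle array 1 (0.24 for Fdft1 and 0.26 for Sqle), without sh-SIRT1 RA array 3 or 4 for Fdft1 (0.34 and 0.33), and without sh-SIRT1 vehicle array 2 or RA array 2 for Sqle (0.34 and 0.29). Lss, lanosterol synthase, did not pass in either line, with 0.09 ± 0.15 and 0.11 ± 0.14.

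The enzymes after lanosterol held the largest rises of the sterol arm. Cyp51, the lanosterol 14-alpha-demethylase, was -0.29, -0.04 and 0.11 in sh-Control vehicle, -0.25, -0.02 and -0.03 in sh-SIRT1 vehicle, and 0.85, 0.85, 0.39 and 0.50 in sh-Control RA. Its sh-SIRT1 RA values ran from 0.61 through a median of 0.64 to 0.78. Every RA array lay above every vehicle array. Cyp51 rose by 0.72 ± 0.13 in sh-Control (1.65-fold, adjusted p = 0.00041) and by 0.77 ± 0.12 in sh-SIRT1 (1.71-fold, adjusted p = 6.92e-05). Its other 2 probes gave 0.45 to 0.68, and both calls stood under all 29 alternatives, with 0.93 for sh-Control RA array 1 alone.

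Tm7sf2, a sterol 14-reductase, was -0.21, 0.77 and 0.67 in sh-Control vehicle, 0.49, 0.79 and 0.75 in sh-SIRT1 vehicle, and 1.77, 1.95, 1.04 and 1.04 in sh-Control RA. In sh-SIRT1 RA it ran from 1.22 through a median of 1.39 to 2.14. Again every RA array was above every vehicle array, and RA arrays 1 and 2 of each line stood highest. It rose by 1.04 ± 0.29 in sh-Control (2.05-fold, adjusted p = 0.010) and by 0.88 ± 0.27 in sh-SIRT1 (1.84-fold, adjusted p = 0.012). Leaving out the low vehicle array 1 gave 0.73 (adjusted p = 0.0658) in sh-Control and 0.79 (adjusted p = 0.0554) in sh-SIRT1.

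Msmo1, the methylsterol monooxygenase that starts the removal of the 4-methyl groups, was 4.11, 4.69 and 4.61 in sh-Control vehicle and 4.89, 5.02 and 5.07 in sh-SIRT1 vehicle. It was 5.22, 5.05, 4.90 and 4.89 in sh-Control RA, and ran from 5.22 through a median of 5.31 to 5.68 in sh-SIRT1 RA. RA arrays lay above vehicle arrays of their line, and within each treatment the sh-SIRT1 arrays lay above the sh-Control arrays. Msmo1 rose by 0.54 ± 0.15 in sh-Control (adjusted p = 0.0074) and by 0.39 ± 0.13 in sh-SIRT1 (adjusted p = 0.023). The latter was lost without sh-SIRT1 vehicle array 1 (0.34, adjusted p = 0.0932) or array 2 (0.40, adjusted p = 0.0529).

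Nsdhl, which follows Msmo1 in the removal of the 4-methyl groups, differed little in mean between RA and vehicle but spread widely. It was 0.62, 0.41, -0.41 and -0.41 on the 4 sh-Control RA arrays, against -0.09 to 0.00 in sh-Control vehicle. RA arrays 1 and 2 lay above and arrays 3 and 4 below all vehicle arrays of the line, so the difference was 0.09 ± 0.24 (adjusted p = 0.79); without RA arrays 1 and 2 of both lines it was -0.38 and passed (adjusted p = 0.0235). In sh-SIRT1 RA the lowest was -0.31 and the highest 0.34, and the difference was 0.06 ± 0.23 (adjusted p = 0.83). Of its other 3 probes, 2 gave differences of 0.06 to 0.12 and the dimmest gave -0.10 and -0.46.

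Hsd17b7, the 3-ketosteroid reductase of the pathway, was 0.02, 0.22 and 0.22 in sh-Control vehicle, 0.17, 0.21 and 0.33 in sh-SIRT1 vehicle, and 0.85, 1.15, 0.88 and 0.88 in sh-Control RA. On the sh-SIRT1 RA arrays it ran from 0.36 through a median of 0.56 to 0.61. RA arrays lay above vehicle arrays in both lines, and all 6 sh-SIRT1 RA arrays lay below all 4 sh-Control RA arrays. It rose by 0.79 ± 0.10 in sh-Control (1.73-fold, adjusted p = 2.59e-05), a call that stood under all 29 alternatives, and by 0.27 ± 0.09 in sh-SIRT1 (1.21-fold, adjusted p = 0.020). With median scaling the sh-SIRT1 difference was -0.01, and without sh-SIRT1 vehicle array 1 or 2 it was 0.24 (adjusted p = 0.0808) or 0.26 (adjusted p = 0.0667). The second, dimmer probe gave 0.69 in sh-Control and 0.67 in sh-SIRT1.

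Ebp, the sterol isomerase, did not pass in either line, with 0.24 ± 0.14 in sh-Control and -0.03 ± 0.13 in sh-SIRT1. Sc5d, the sterol C5-desaturase, went from 1.13 to 1.30 in sh-Control vehicle to 1.54 to 2.01 in sh-Control RA, and from 1.5 to 1.56 in sh-SIRT1 vehicle to 1.72 to 2.10 in sh-SIRT1 RA. It rose by 0.49 ± 0.12 (adjusted p = 0.0040) and by 0.48 ± 0.11 (adjusted p = 0.0019), and its second probe gave 0.42 and 0.71. With sh-Control RA array 1 alone the first was 0.41 (adjusted p = 0.0546). Dhcr7, which makes cholesterol from its 7-dehydro precursor, was 2.81, 3.56 and 3.5 in sh-Control vehicle, 3.15, 3.52 and 3.47 in sh-SIRT1 vehicle and 4.10, 4.16, 3.76 and 3.72 in sh-Control RA. The 6 sh-SIRT1 RA arrays ran from 3.62 through a median of 3.72 to 3.99. RA arrays lay above vehicle arrays in both lines. The rise of 0.65 ± 0.18 in sh-Control passed (adjusted p = 0.0081), and in sh-SIRT1 a difference of 0.37 ± 0.16 did not (adjusted p = 0.062), but passed when sh-Control vehicle array 1, which enters the shared spread, was left out (adjusted p = 0.0183).

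Stard4, a carrier that moves cholesterol between membranes, went from 1.09 to 1.18 in sh-Control vehicle to 1.46 to 1.77 in sh-Control RA, without overlap. It rose by 0.49 ± 0.12 there (adjusted p = 0.0050). In sh-SIRT1 it was 1.14 to 1.31 in vehicle and 1.06 to 1.63 in RA, with a difference of 0.05 ± 0.11 (adjusted p = 0.74). The difference between these effects was -0.44 ± 0.17 and did not pass (adjusted p = 0.15).

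Among the regulators, Srebf1 passed and Srebf2 did not. Srebf1, which encodes the factor tied most to fatty acid synthesis, was 3.84, 4.45 and 4.40 in sh-Control vehicle, 4.24, 4.48 and 4.46 in sh-SIRT1 vehicle, and 4.68, 4.75, 4.85 and 4.81 in sh-Control RA. Its sh-SIRT1 RA values ran from 4.72 through a median of 4.84 to 4.88. Every RA array lay above every vehicle array. It rose by 0.54 ± 0.12 in sh-Control (adjusted p = 0.0027) and by 0.43 ± 0.11 in sh-SIRT1 (adjusted p = 0.0052), and with sh-Control RA array 1 alone the first was 0.45 (adjusted p = 0.108). Srebf2, which encodes the factor tied most to cholesterol synthesis, gave -0.01 ± 0.10 and 0.13 ± 0.09.

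Scap rose by 0.47 ± 0.08 in sh-Control (adjusted p = 0.00033) and by 0.40 ± 0.07 in sh-SIRT1 (adjusted p = 0.00039). Its levels were 3.69 to 3.86 and 4.17 to 4.34 on the sh-Control vehicle and RA arrays, and 3.96 to 4.00 and 4.23 to 4.49 on those of sh-SIRT1. Insig1, itself a target of the pathway's transcription factors, was -1.96, -1.17 and -1.2 in sh-Control vehicle, -1.87, -1.42 and -1.36 in sh-SIRT1 vehicle and -0.17, -0.42, -0.97 and -0.96 in sh-Control RA. In sh-SIRT1 RA it ran from -1.23 through a median of -0.95 to -0.78. RA arrays lay above vehicle arrays of their line, with vehicle array 1 lowest. Insig1 rose by 0.81 ± 0.23 in sh-Control (adjusted p = 0.0099) and by 0.58 ± 0.21 in sh-SIRT1 (adjusted p = 0.030). Without vehicle array 1 of the line the differences were 0.55 (adjusted p = 0.0646) and 0.42 (adjusted p = 0.16), and without sh-SIRT1 RA array 1 or 2 the latter was 0.54 or 0.55 (adjusted p = 0.0518 or 0.0515).

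Insig2, the other INSIG gene, was 1.29 to 1.49 in sh-Control vehicle, 1.45 to 1.91 in sh-Control RA, 1.18 to 1.33 in sh-SIRT1 vehicle and 1.15 to 1.36 in sh-SIRT1 RA. It rose by 0.36 ± 0.11 in sh-Control (adjusted p = 0.015) and differed by -0.01 ± 0.10 in sh-SIRT1 (adjusted p = 0.93). The sh-Control groups overlapped at RA array 1, with which alone the difference was 0.07 (adjusted p = 0.718), and without sh-Control vehicle array 1 it was 0.31 (adjusted p = 0.0622). The difference between the effects was -0.37 ± 0.15 and did not pass (adjusted p = 0.18).

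In the fatty acid arm the desaturases stood apart from the early enzymes. Acly makes cytosolic acetyl-CoA from citrate, Acaca carboxylates it, and Fasn assembles the chain. Acly differed by 0.00 ± 0.13 in sh-Control and fell by 0.43 ± 0.12 in sh-SIRT1 (adjusted p = 0.0053), from 2.47 to 2.52 on the vehicle arrays to 1.86 to 2.34 on the RA arrays. With quantile normalization the latter was -0.22 and did not pass. Acaca gave 0.24 ± 0.12 and 0.22 ± 0.12, and neither passed. Fasn gave -0.18 ± 0.11 and -0.04 ± 0.10, and neither passed, while its second and dimmer probe gave 0.36 and 0.37. Without sh-Control RA array 2 the sh-Control difference of Fasn was -0.28 and passed (adjusted p = 0.0186), and without RA arrays 1 and 2 of both lines it was -0.30 and passed (adjusted p = 0.0105). With quantile normalization the sh-SIRT1 difference of Fasn turned to 0.33 and passed.

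Elovl6, which elongates palmitate to stearate, was 4.23, 3.63 and 3.65 in sh-Control vehicle, 4.00, 3.71 and 3.73 in sh-SIRT1 vehicle and 4.73, 3.80, 4.37 and 4.31 in sh-Control RA. On the sh-SIRT1 RA arrays it ran from 4.36 through a median of 4.59 to 4.78. All sh-SIRT1 RA arrays lay above the vehicle arrays, and Elovl6 rose by 0.75 ± 0.18 (1.68-fold, adjusted p = 0.0026), a call that stood under all 29 alternatives. In sh-Control, array 2 of the RA group lay below vehicle array 1, and its 0.47 ± 0.19 did not pass (adjusted p = 0.062). Leaving out sh-Control RA array 2 gave 0.63 (adjusted p = 0.00894), leaving out sh-Control vehicle array 1 gave 0.66 (adjusted p = 0.0176), RA array 1 alone gave 0.89 (adjusted p = 0.013), and RA arrays 3 and 4, with RA arrays 1 and 2 of both lines left out, gave 0.50 (adjusted p = 0.0299). The difference of RA effects between the lines was 0.28 ± 0.26 and did not pass (adjusted p = 0.60).

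Scd1, a stearoyl-CoA desaturase that makes monounsaturated fatty acids, was 0.38, 0.36 and 0.29 in sh-Control vehicle, 0.44, 0.43 and 0.38 in sh-SIRT1 vehicle, and 2.05, 2.35, 1.36 and 1.36 in sh-Control RA. The 6 sh-SIRT1 RA arrays ran from 1.82 through a median of 2.11 to 2.33. Every RA array lay far above every vehicle array, and within sh-Control RA arrays 3 and 4 were lowest. Scd1 rose by 1.44 ± 0.21 in sh-Control (2.71-fold, adjusted p = 8.11e-05) and by 1.67 ± 0.19 in sh-SIRT1 (3.17-fold, adjusted p = 5.8e-06). These were the largest differences of the 30 genes in each line.

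Scd2, a second stearoyl-CoA desaturase, was 4.85, 4.80 and 4.63 in sh-Control vehicle, 5.02, 5.05 and 5.07 in sh-SIRT1 vehicle, and 5.65, 6.09, 5.30 and 5.46 in sh-Control RA. Its sh-SIRT1 RA values ran from 6.08 through a median of 6.19 to 6.36. RA arrays lay above all vehicle arrays. Scd2 rose by 0.86 ± 0.15 in sh-Control (1.82-fold, adjusted p = 0.00034) and by 1.16 ± 0.14 in sh-SIRT1 (2.23-fold, adjusted p = 7.55e-06). The calls of Scd1 and Scd2 stood under all 29 alternatives in both lines, with sh-Control differences of 1.71 and 0.89 for RA array 1 alone. The probes lie on chromosome 19 of mm7, at chr19:44288770-44288829 for Scd1 and chr19:44200407-44200466 for Scd2. With sh-Control RA array 1 alone the rises also passed for Pmvk (1.09), Tm7sf2 (1.36), Msmo1 (0.75), Hsd17b7 (0.70), Dhcr7 (0.81), Stard4 (0.62), Scap (0.41) and Insig1 (1.27). The exons or untranslated regions in which probes lie were not analysed here.

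**Figure D3:**
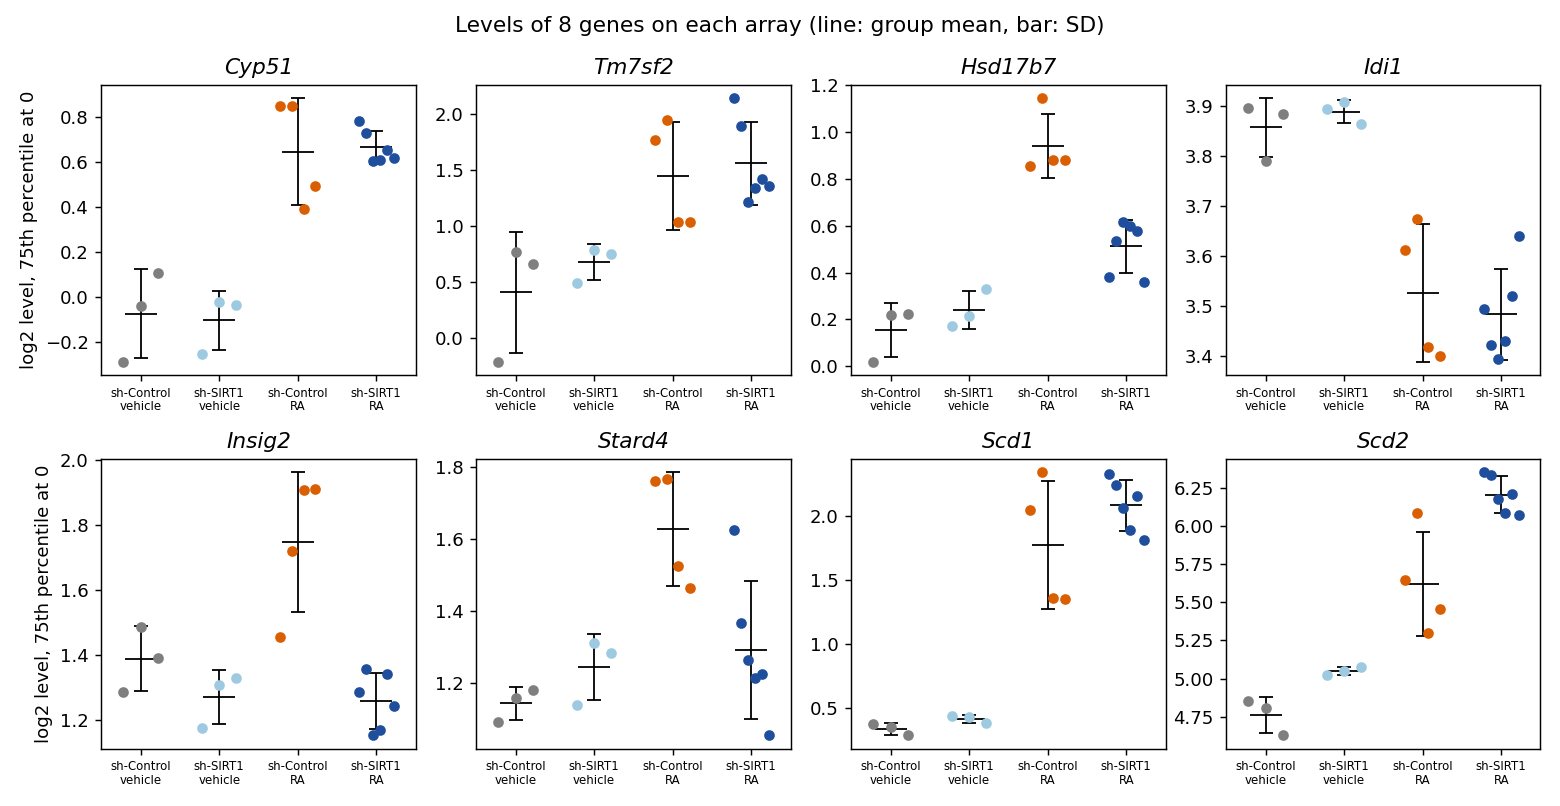
Points show the log2 level of 8 genes on each array, relative to the 75th percentile of the array, with the group mean and SD. Scd1 and Cyp51 show RA arrays above all vehicle arrays in both lines, Idi1 shows them below, and Insig2 and Hsd17b7 show sh-SIRT1 RA arrays below all sh-Control RA arrays.

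The arms were compared by their medians and, on each array, by the mean of their genes after each gene was centred on its mean over 16 arrays. Under RA the sterol arm had 9 of 18 genes higher and 1 lower in sh-Control, with a median difference of 0.37, and the fatty acid arm had 2 of 6 higher, with a median of 0.35. Of all genes 19.7% were higher and 27.2% lower there, with a median of -0.14. In sh-SIRT1 the sterol arm had 11 higher and 1 lower, with a median of 0.37, and the fatty acid arm 3 higher and 1 lower, with a median of 0.48. Of all genes 23% were higher and 35.3% lower in that line, with a median of -0.13. With median scaling the medians of the sterol and fatty acid arms were 0.214 and 0.20 in the sh-Control line. In sh-SIRT1 they were 0.0856 and 0.196, and Cyp51 was the 1 sterol enzyme that rose there. No test was made of the arms as such.

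On the arrays, the sterol arm mean was -0.45, -0.09 and -0.11 in sh-Control vehicle, -0.34, -0.18 and -0.16 in sh-SIRT1 vehicle and 0.21, 0.36, 0.04 and 0.06 in sh-Control RA. In sh-SIRT1 RA it ran from 0.04 through a median of 0.11 to 0.17. The fatty acid arm mean was -0.34, -0.40 and -0.44, then -0.20, -0.30 and -0.32, then 0.20, 0.29, -0.08 and -0.09 in the same groups, and from 0.20 through 0.24 to 0.41 in sh-SIRT1 RA. RA arrays exceeded vehicle arrays in both arms and both lines. Under RA the sterol arm of the lines overlapped, with means of 0.17 ± 0.15 (SD, n = 4) and 0.11 ± 0.05 (SD, n = 6). The sterol mean minus the fatty acid mean was 0.01 to 0.14 on the sh-Control RA arrays and -0.24 to -0.10 on the sh-SIRT1 RA arrays, with no overlap. It was -0.11, 0.31 and 0.32 on the sh-Control vehicle arrays and -0.14, 0.12 and 0.16 on the sh-SIRT1 vehicle arrays, which overlapped. Compared by array number, sh-SIRT1 was the lower in each vehicle pair, the same direction as under RA.

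**Figure D4:**
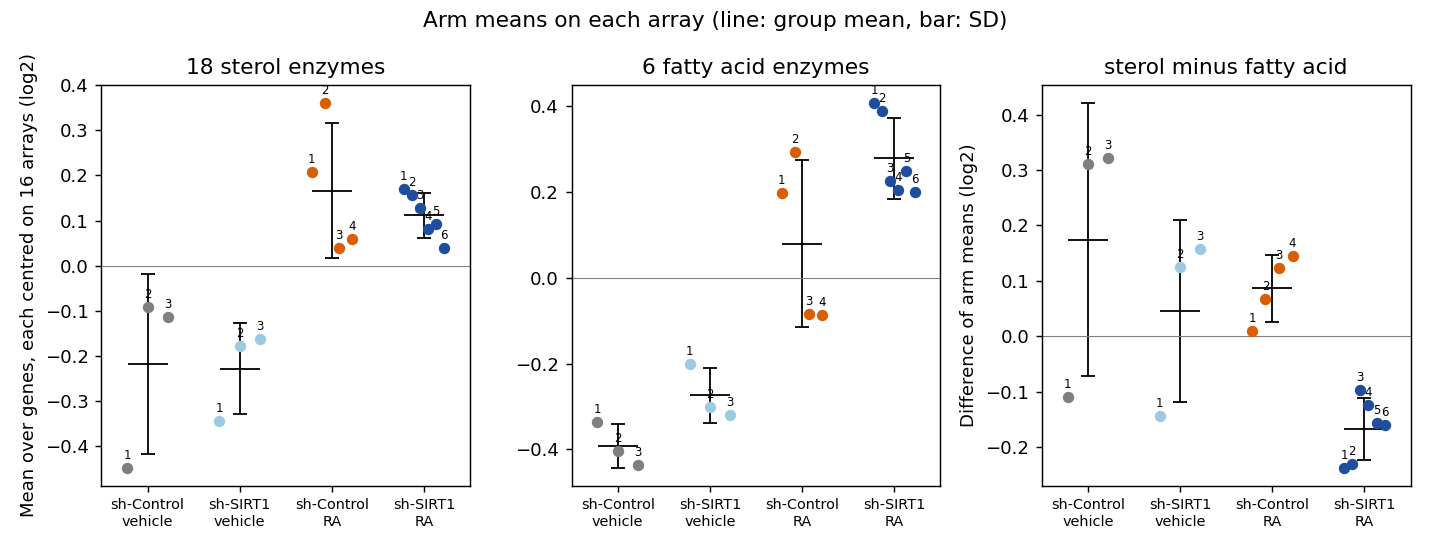
Points show, for each array, the mean of the 18 sterol enzymes, the mean of the 6 fatty acid enzymes and their difference, in log2 units with each gene centred on its mean over 16 arrays; numbers are the replicate numbers, lines the group means and bars the SD. Both arms are higher under RA. The difference of the arms lies at 0.01 to 0.14 on the 4 sh-Control RA arrays and at -0.24 to -0.10 on the 6 sh-SIRT1 RA arrays. The vehicle arrays of the lines overlap, though sh-SIRT1 is the lower at each array number there too.

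Without RA, 1 of the 30 genes, Mvk, passed between the lines, and 5 passed with a block on replicate number, while without the block 8.62% of all genes passed, 4.41% higher and 4.21% lower in sh-SIRT1. By arrays alone, sh-SIRT1 lay wholly above sh-Control in 8 and wholly below in 3 of the 30, against 18.5% and 17.5% of all genes. All 3 sh-SIRT1 vehicle arrays lay below the sh-Control vehicle arrays in Mvk, with a fall of 0.50 ± 0.14 (1.42-fold, adjusted p = 0.040). This call was lost in 18 of 30 alternatives, among them the omission of sh-Control vehicle array 2 (0.39 lower) or 3 (0.43 lower) or of any 1 sh-SIRT1 vehicle array (0.46 to 0.53 lower). Arrays of the same number deviated together in the vehicle groups. However, sh-Control vehicle array 2 had a correlation of 0.329 with sh-SIRT1 vehicle array 3, against 0.363 with array 2. The vehicle pairs of arrays 2 and 3 are therefore less certain. With the number as a block within treatment 5 of the 30 passed. Acat2 was lower by 0.45 (adjusted p = 0.0452), Mvk by 0.50 (adjusted p = 0.0267) and Fdft1 by 0.42 (adjusted p = 0.011), while Msmo1 was higher by 0.52 (adjusted p = 0.0125) and Acly by 0.28 (adjusted p = 0.0417). The same block raised the count over all genes from 1576 to 3513. Without RA arrays 1 and 2, which enter here through the shared spread, 9 of the 30 passed, beside 25.1% of all genes.

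Msmo1 and Mvd lie on chromosome 8, where 958 genes had a median hairpin difference of 0.36 in vehicle against -0.02 for genes elsewhere, and 0.26 against -0.05 under RA. For Msmo1 the corresponding differences were 0.52 and 0.37, and for Mvd -0.04 and -0.01. The part of the chromosome in the Msmo1 difference was not tested.

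Under RA, 3 of the 30 were higher and 3 lower in the sh-SIRT1 line, while 20.3% of all genes passed, 8.6% higher and 11.7% lower. The sh-SIRT1 arrays lay wholly above the sh-Control arrays in 1 of the 30, Msmo1, and wholly below in 2, Hsd17b7 and Insig2, against 6.47% and 8.94% of all genes. Scd2 was higher by 0.58 ± 0.13 (1.5-fold, adjusted p = 0.0051), with the values given above, and only sh-Control RA array 2 reached the range of the sh-SIRT1 RA arrays. That difference was 0.56 with sh-Control RA array 1 alone (adjusted p = 0.0214). Msmo1 was higher by 0.37 ± 0.12 (adjusted p = 0.048) and Sc5d by 0.33 ± 0.10 (adjusted p = 0.033). The block on replicate number rests on pairs that are not established for RA arrays 3 and 4. With it Msmo1 gave 0.40 (adjusted p = 0.0131), Sc5d gave 0.29 and did not pass (adjusted p = 0.0802), and Lss, at -0.24, passed (adjusted p = 0.0313).

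Insig2 was lower by 0.49 ± 0.09 in sh-SIRT1 under RA (1.40-fold, adjusted p = 0.0023), and its second probe gave -0.79. Hsd17b7 was lower by 0.43 ± 0.08 (1.35-fold, adjusted p = 0.0029), but its second probe gave -0.07. Stard4 was lower by 0.34 ± 0.10 (adjusted p = 0.032), and its other 2 probes gave -0.35. With sh-Control RA array 1 alone none of the 3 passed: the differences were -0.20 for Insig2 (adjusted p = 0.317), -0.34 for Hsd17b7 (adjusted p = 0.122) and -0.47 for Stard4 (adjusted p = 0.101). In that setting Scd2 was the 1 gene of the 30 that passed. Without sh-Control RA array 2, Scd1 was higher by 0.50 and passed (adjusted p = 0.0336) and Fasn by 0.28 (adjusted p = 0.0185). Without RA arrays 1 and 2 of both lines, 4 were higher and 3 lower, beside 33% of all genes passing. Scd1 (0.62, adjusted p = 0.000768) and Fasn (0.27, adjusted p = 0.0241) then passed, and Msmo1 (0.39, adjusted p = 0.0557) did not. The calls of Msmo1, Sc5d and Stard4 were lost in 19, 16 and 13 of 30 alternatives, including the omission of single arrays, which gave 0.31 to 0.40 for Msmo1, 0.28 to 0.33 for Sc5d and -0.33 to -0.29 for Stard4 where the call was lost.

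**Figure D5:**
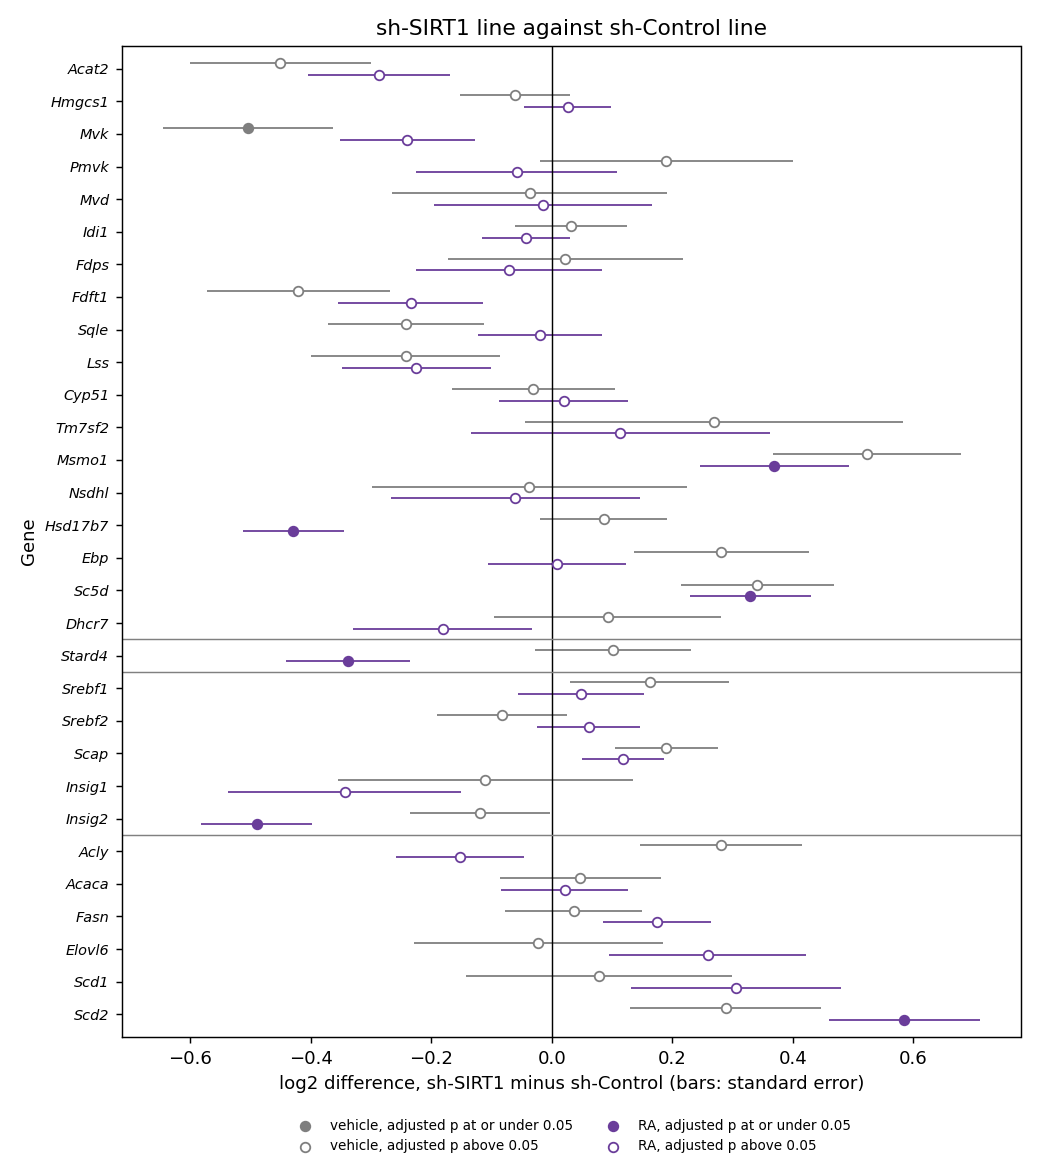
Points show the log2 difference between the sh-SIRT1 and sh-Control lines for each gene in vehicle and under RA, and bars show the SE. Filled points passed: Mvk in vehicle, and Msmo1, Sc5d, Scd2, Hsd17b7, Insig2 and Stard4 under RA.

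The RA effect itself was compared between the lines as a difference of differences. None of the 30 passed with limma, while 3.59% of all genes did, 1.71% higher and 1.88% lower. At an unadjusted p under 0.05, 4 of the 30 did, beside 20% of all genes: Hsd17b7, Stard4, Acly and Insig2, each with the smaller or more negative RA effect in sh-SIRT1. Hsd17b7 came nearest, at -0.51 ± 0.13 (adjusted p = 0.0504). With the block on replicate number within treatment Hsd17b7 was at -0.49 and passed (adjusted p = 0.0476), though pairs by number are not established for RA arrays 3 and 4. Its second probe gave -0.01 for this difference, and with sh-Control RA array 1 alone it was -0.43 (adjusted p = 0.232). Without that array Hsd17b7 was at -0.54 (adjusted p = 0.027) and Insig2 at -0.47 (adjusted p = 0.0266), and both passed. Without RA arrays 1 and 2 of both lines, 7 of the 30 passed, beside 22.5% of all genes. The RA effect was then larger in sh-SIRT1 for Sqle (0.44, adjusted p = 0.0143), Scd1 (0.55, adjusted p = 0.0137) and Scd2 (0.47, adjusted p = 0.0148). It was smaller or more negative there for Hsd17b7 (-0.43, adjusted p = 0.0383), Acly (-0.46, adjusted p = 0.00581), Insig2 (-0.56, adjusted p = 0.00696) and Stard4 (-0.41, adjusted p = 0.0234). That setting was chosen after the marker values were seen, and sh-Control RA arrays 3 and 4, which lacked Ddx3y signal, then stood for their group.

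Promoter sequences were set beside these values because 8 of 18 sterol enzymes rose in both lines under RA, while 5 passed in neither and Idi1 fell in both. The RefSeq promoter table (build GRCm38.p6) held 24 of the 30 genes; Fdft1, Fdps, Sqle, Scd1, Scd2 and Stard4 were not matched. The 250 bases before each start were searched on both strands. The core of the sterol regulatory element, TCACNCCAC, was in 1 of the 24 genes, Hmgcs1, and in 1.22% of all 27025 genes of the table. The NF-Y box CCAAT was in 19 of the 24 (79.2%), against 37.5% of all genes. It was in 14 of 15 sterol enzymes, of which Acat2 lacked it, and in 1 of 4 fatty acid enzymes, Fasn. Direct repeats of AGGTCA spaced by 4 or 5 bases, the forms read by oxysterol and retinoic acid receptors, were in none of the 24 and in 4 and 3 of all genes. A match is a description of letters, and no match says only that these letters are not in the window.

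The sites shown are the sterol element of Hmgcs1, then NF-Y boxes of Cyp51, Tm7sf2 and Hsd17b7, which rose in both lines, and of Idi1, which fell. Each is written from 5′ to 3′ on the strand of the gene, with the motif in capitals; ATTGG is the NF-Y box read on the other strand.
Hmgcs1: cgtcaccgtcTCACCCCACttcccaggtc
Cyp51: cgctgtccgccaCCAATctggtcctgaga
Tm7sf2: ctcccagcgctgATTGGctactgtgctgg
Hsd17b7: tgccgagtcgcgATTGGcgggcctaacgc
Idi1: tgcctccagctgATTGGcgagcccgggca
In build GRCm38.p6 the Hmgcs1 stretch is chr13:119690204-119690232 on the plus strand, with the motif 129 to 137 bases before the start. The Cyp51 stretch is chr5:4104710-4104738 on the minus strand, 25 to 29 bases before. That of Tm7sf2 is chr19:6067881-6067909 on the minus strand, 43 to 47 bases before, and that of Hsd17b7 is chr1:169969262-169969290 on the minus strand, 69 to 73 bases before. That of Idi1 is chr13:8885549-8885577 on the plus strand, 41 to 45 bases before. Hmgcs1, the gene with the sterol element, did not pass in either line, and which transcript the Idi1 probes read was not settled.

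Other genes of the same pathways were counted from lists chosen with earlier results of these data known, and stand beside 19.7% of all genes higher and 27.2% lower in sh-Control and 23% higher and 35.3% lower in sh-SIRT1. Of 28 further genes of fatty acid and glycerolipid synthesis, 14 rose and 4 fell under RA in sh-Control, with a median of 0.40, and 16 rose and 5 fell in sh-SIRT1, with a median of 0.56. Median scaling gave 10 higher and 5 lower, and 13 higher and 7 lower. With it 53.2% and 67.2% of all genes passed in either direction, with medians of -0.29 and -0.42. They included the desaturase gene Fads3 (2.51 ± 0.18 and 3.01 ± 0.17), Fads2, the delta-6 desaturase (1.31 ± 0.24 and 1.71 ± 0.22), Thrsp, a lipogenic response gene (1.90 ± 0.60 and 1.96 ± 0.56), and Acss2, which makes acetyl-CoA from acetate (1.37 ± 0.20 and 1.51 ± 0.19). The Thrsp calls were lost without vehicle array 1 of the line (1.59 and 1.53). Of 8 further genes of sterol and isoprenoid synthesis, 2 rose in sh-Control, and 2 rose and 2 fell in sh-SIRT1. Acat1, the mitochondrial thiolase, rose by 1.18 ± 0.12 and 0.67 ± 0.11, while Pdss1 and Ggps1, which build longer isoprenoids, fell by 0.67 ± 0.09 and 0.35 ± 0.07 in sh-SIRT1.

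The next lists stand beside the same shares of all genes. These were 19.7% higher and 27.2% lower in sh-Control, and 23% higher and 35.3% lower in sh-SIRT1. Of 18 genes of sterol sensing, transport and efflux, 5 rose and 3 fell in sh-Control, and 9 rose and 2 fell in sh-SIRT1. Median scaling gave 3 higher and 4 lower in each line, beside 53.2% and 67.2% of all genes passing with that scaling. Mylip, which targets lipoprotein receptors for breakdown and is induced by oxysterol receptors, rose by 1.29 ± 0.11 and 1.2 ± 0.10. Nr1h3, which encodes the oxysterol receptor LXR alpha, rose by 0.92 ± 0.20 and 0.80 ± 0.18, and with sh-Control RA array 1 alone the first did not pass. Soat1, which esterifies cholesterol, and Cyp27a1, a sterol hydroxylase, passed in sh-SIRT1, with 0.94 ± 0.18 and 1.26 ± 0.47, and not in sh-Control, with 0.13 ± 0.19 and 1.23 ± 0.51. The difference of RA effects passed for neither, at 0.81 ± 0.26 for Soat1 (adjusted p = 0.096) and 0.03 ± 0.69 for Cyp27a1 (adjusted p = 0.99). Another probe of Soat1 gave -0.08 in sh-Control and -0.01 in sh-SIRT1. Of 19 genes of fatty acid oxidation, 5 rose and 2 fell in sh-Control, and 6 rose and 4 fell in sh-SIRT1, with medians of 0.11 and 0.05. Median scaling gave 4 higher and 3 lower, and 4 higher and 7 lower, beside the same 53.2% and 67.2% of all genes. Slc25a20, the carnitine carrier of mitochondria, rose by 1.40 ± 0.17 and 1.22 ± 0.15, and Acadvl, an acyl-CoA dehydrogenase, by 1.01 ± 0.12 and 0.78 ± 0.11. Decr1, which reduces unsaturated intermediates, rose by 2.25 ± 0.24 and 1.64 ± 0.22, but by 0.55 and 0.54 with normexp background, where neither passed. Cpt1b, a carnitine palmitoyltransferase, gave -0.44 ± 0.25 in sh-Control and rose by 0.70 ± 0.24 in sh-SIRT1, a call lost without sh-SIRT1 vehicle array 1 (0.69) or 2 (0.54); the difference of RA effects was 1.14 ± 0.35 and did not pass (adjusted p = 0.080).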

How the data were processed

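Intensity values of 16 Agilent 1-colour arrays were deposited by the authors. They came from Agilent Feature Extraction 9.5, per the submitters' processing notes (9.5.3.1 per the file headers), and the deposited value table equalled the processed intensity. Probe positions are in mm7, per the file headers. Log2 of the deposited intensity minus the log2 of each array's 75th percentile (684.1 to 1155) was used. Control spots and outlier spots were left out, repeated spots were averaged, and a probe was kept if every array of 1 or more groups had it well above background (26369 of 41174). Probes were named through RefSeq accessions where these matched (22951 probes), otherwise from the files. Groups were compared with lmFit and eBayes of limma (version 3.58.1, R version 4.3.3) over all 16 arrays, with 12 residual degrees of freedom. A gene passed at an adjusted p under 0.05. The number of arrays limits the precision. The steps were tested on simulated data. The members and gene lists were chosen with earlier results of these data known. All members are named; other lists give at most 4 genes, the largest differences among those that pass. Within treatment, same-numbered arrays of the lines deviated together over all genes (correlations of 0.363 to 0.541), so the number was also fitted as a block there. Between vehicle and RA they did not (-0.21 to 0.22). Some arrays of unlike number deviated together as well. Sh-Control vehicle array 2 gave 0.329 with sh-SIRT1 vehicle array 3, against 0.363 with array 2. Sh-Control RA array 3 gave 0.519 with sh-SIRT1 RA array 5, against 0.46 with array 3. Sh-Control RA array 4 gave 0.492 with sh-SIRT1 RA array 5, against 0.431 with array 4. Pairs by number are therefore not established for RA arrays 3 and 4. Alternatives covered background, scaling, filter, slide, block, probes and arrays left out. Fits without single arrays repeated the filter and the choice of probe, which changed the probe of 0 of the 30. Leaving out vehicle arrays 1, or RA arrays 1 and 2, of both lines was chosen after seeing the data.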

Additional observations from a re-analysis of the deposited data

Results flagged for a closer look

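In 66 comparisons of an array with its group (30 genes and 3 arm measures in each RA group), 4 values stood apart by Dixon's ratio. Chance flags about 1 comparison in 20, so a number of flags near this can arise by chance. In the sh-Control RA group, array 2 was the highest of 4 in Hsd17b7 (1.145, the others 0.854 to 0.881), in Sc5d (2.009, the others 1.536 to 1.605) and in Acaca (0.233, the others -0.22 to -0.153). In the sh-SIRT1 RA group, array 1 was the lowest of 6 in Sc5d (1.723, the others 2.019 to 2.099).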

How the results depend on the processing

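Values are in the order of the settings named, counts are genes passing, and "of the 30" means the lipid genes. For the hairpin in vehicle, all genes passing numbered 270 with normexp background, 975 with slide as a fixed block and 3513 with the replicate block within treatment. Of the 30, 0 passed with normexp, quantile normalization, no filter, the replicate block over both treatments, the groups compared alone and sh-Control RA array 1 alone, 2 with median scaling and with probes above background on all arrays, and 5 with the block within treatment. With median scaling the sterol arm median was 0.132 and the fatty acid arm median 0.199; within slide 1 the sterol median was 0.224 and the sterol minus fatty acid difference 0.171. For RA in sh-Control, normexp gave 4639 genes and 10 of the 30. The groups compared alone gave 11, beside 33.8% of all genes passing. The sterol median was 0.527 with quantile normalization, 0.214 with median scaling and 0.621 within slide 1. The fatty acid median was 0.20 with median scaling, 0.531 with RA array 1 alone, 0.149 within slide 1 and 0.5997 within slide 4. Sterol minus fatty acid was -0.185 with RA array 1 alone, -0.178 with vehicle arrays 2 and 3 alone, 0.472 within slide 1 and -0.22 within slide 4. For RA in sh-SIRT1, normexp gave 12 and median scaling 9 of the 30, beside 39.4% and 67.2% of all genes passing. The sterol median was 0.603 with quantile normalization and 0.0856 with median scaling, and the fatty acid median 0.701, 0.196 and, within slide 2, 0.282. Sterol minus fatty acid was -0.300 with vehicle arrays 2 and 3 alone, -0.273 within slide 1, 0.199 within slide 2 and -0.245 within slide 3. The sh-SIRT1 difference of Hsd17b7 turned to -0.0139 with median scaling and that of Fasn to 0.33 with quantile normalization. For the hairpin under RA, normexp gave 1122 genes and 2 of the 30, no filter and the replicate block over both treatments gave 3, and RA array 1 alone gave 2127 genes and 1. The fatty acid median was 0.0631 with RA array 1 alone and 0.0628 within slide 4. For the difference of RA effects, genes passing were 22 with normexp, 285 with no filter, 92 with slide as a fixed block, 185 with the replicate block, 1657 with the block within treatment and 324 with RA array 1 alone. Of the 30, 1 passed with median scaling, with probes above background on all arrays and with the block within treatment, and 2 with the mean of all kept probes. The sterol median was -0.149 with median scaling, -0.148 with RA array 1 alone and -0.217 within slide 1. The fatty acid median was 0.0514, 4.4e-05 and 0.315, and sterol minus fatty acid was -0.532 within slide 1. Without RA arrays 1 and 2 of both lines, 4580 genes passed for the hairpin in vehicle, 6035 for the hairpin under RA and 4117 for the difference of RA effects, with 9, 7 and 7 of the 30, and the sh-Control RA difference of Nsdhl turned to -0.377. The causes of these shifts were not tested. Leaving out single arrays, all genes passing ranged from 744 to 2232, 7142 to 8715, 9343 to 11148, 2493 to 4303 and 204 to 1876 in the same 5 comparisons, and of the 30, from 0 to 2, 13 to 18, 11 to 20, 3 to 7 and 0 to 2. The sterol median ranged from -0.136 to 0.0649, 0.268 to 0.411, 0.270 to 0.425, -0.127 to 0.0245 and -0.083 to 0.126. The fatty acid median ranged from 0.0233 to 0.135, 0.295 to 0.445, 0.438 to 0.569, 0.144 to 0.278 and 0.0861 to 0.217. Sterol minus fatty acid ranged from -0.271 to 0.0265, -0.178 to 0.101, -0.300 to -0.0126, -0.300 to -0.177 and -0.300 to -0.00155. The replicate block across vehicle and RA, whose numbers did not pair the samples, gave 17 higher and 1 lower in sh-Control. In sh-SIRT1 it gave 19 higher and 2 lower. All genes passing were 46.4% and 55.9%.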
